A study of Mus musculus with 37 samples.

Results

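Described here are 7 genes that build the coat of the mouse egg or act at its surface when sperm arrive: Zp1, Zp2, Zp3, Astl, Cd9, Cd81 and Izumo1r. They were named for what their proteins do, with earlier results of these data known, and all 7 were found among the 54752 genes of the deposited tables, with 27 of the 138835 transcripts. The zona pellucida is a glycoprotein coat that the growing oocyte secretes; in the mouse its filaments are made of ZP1, ZP2 and ZP3, and sperm bind it through the amino-terminal part of ZP2. At fertilization the oocyte's cortical granules release ovastacin, the protease that Astl encodes, which cleaves ZP2 and thereby stops further sperm from binding. On the egg's plasma membrane JUNO, the product of Izumo1r, is a GPI-anchored relative of the folate receptors and binds IZUMO1 on the sperm, and the tetraspanin CD9 is needed for the membranes to fuse; CD81 is a related tetraspanin that cumulus cells carry as well.

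The RNA came from 37 single oocytes of young adult C57BL/6 females primed with PMSG, a gonadotropin that makes follicles grow, and each library was made with the Smart-seq2 method, which copies polyadenylated RNA by priming on its tail. Batch A held 6 oocytes at the germinal vesicle (GV) stage, arrested in prophase and taken from the ovaries, and 6 at metaphase II (MII), ovulated after hCG and taken from the ampulla. Batch B held 10 GV oocytes and 15 at metaphase I (MI), which had been cultured in vitro from denuded GV oocytes. The zona pellucida was dissolved with acidic Tyrode's solution before lysis and the polar body was removed, so each oocyte was lysed without its coat. Oocytes within a group are numbered as in the labels. The numbers do not say whether oocytes came from separate animals, so each p-value measures the spread between these oocytes only. GV is the stage that both batches hold, and MI and MII oocytes were never in the same batch; each stage was compared with GV within its own batch, and a difference between the change to MII and the change to MI cannot be told apart from a difference between the batches.

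Depth, as the sum of RSEM expected counts over all genes, ran from 7509875 to 12648629 in the GV oocytes of batch A, with a median of 10014033. In the MII oocytes it ran from 9930485 to 13988444, with a median of 10509159. In batch B the GV oocytes held 7184205 to 17724506 counts, with a median of 11548242, and the MI oocytes 2709280 to 19390128, with a median of 12840734. A few libraries stood apart. MII oocyte 1 had 29518 genes with a count, against a median of 20264.5 in its group, and MI oocyte 15 had the fewest counts and 12505 genes. In MI oocytes 4, 8 and 9 the HTSeq total lay well below the RSEM total, for example 7126122 against 13460604 in MI oocyte 9. Where a value was also computed without some of these libraries, the text says so; all other values include them.

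The 7 genes lie at 7 separate loci of GRCm38 (mm10). Zp1 spans 10914287 to 10920632 of chromosome 19 on the minus strand, Zp2 spans 120126772 to 120145291 of chromosome 7 on the minus strand, and Zp3 spans 135980099 to 135988624 of chromosome 5 on the plus strand. Astl lies on the plus strand of chromosome 2 from 127338639 to 127357651, and Izumo1r on the minus strand of chromosome 9 from 14885814 to 14903949. Cd9 lies on the minus strand of chromosome 6 from 125460266 to 125494791 and Cd81 on the plus strand of chromosome 7 from 143052739 to 143067934. Both tetraspanin genes overlap RNAs of the opposite strand. Of the 2044 exonic bases of Cd9, 278 are shared with Gm26728, and a second antisense RNA, Gm28809, lies within its introns. Of the 2879 exonic bases of Cd81, 312 are shared with R74862. The strandedness of the counting is not stated, so reads from these partners cannot be told apart from reads of Cd9 and Cd81 there. The other 5 genes overlap no annotated neighbour.

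The libraries held the RNA of oocytes. All 9 oocyte markers looked up (Gdf9, Bmp15, Ooep, Nlrp5, Dppa3, Zar1, Oosp1, Kit and Mos) had counts in every group, and their summed level ran from 7365 to 11077 counts-per-million (CPM) in the GV oocytes of batch A, with a median of 8694. In the MII oocytes the sum ran from 7178 to 8488 CPM with a median of 7872, in the GV oocytes of batch B from 3151 to 5875 with a median of 4147, and in the MI oocytes from 3027 to 4807 with a median of 3705. Gdf9, a growth factor that the oocyte secretes, was the most abundant of them in all 4 groups. The sums of the 2 batches did not overlap on CPM scaled within each batch, but these scales are not shared between the batches.

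Markers of the follicle cells that surround an oocyte were present at a lower sum. For 18 cumulus and granulosa markers it was 181 to 241 CPM in the GV oocytes of batch A (median 213), 244 to 307 in MII (median 301), 88.1 to 124 in the GV oocytes of batch B (median 106) and 82.4 to 138 in MI (median 105). Most of it was Serpine2, a protease inhibitor that was the most abundant marker in each group, with medians of 177, 264, 68.5 and 65.5 CPM. Serpine2, Cyp19a1 and Nr5a2 averaged at least 10 counts in all 4 groups. Fshr, Has2, Gja1, Cyp11a1 and Star did so in the GV oocytes of batch A, Inhba, Has2 and Gja1 in those of batch B, and Has2 and Star in MI. The cumulus expansion genes Areg and Ptx3 had no count in the GV oocytes of batch A, nor in either group of batch B, and Areg had none in MII; Amh, Foxl2 and Ereg had none in batch B, nor Pgr in MI. In MII every sum was higher than in any GV oocyte of its batch. Serpine2, at 146 to 194 CPM in GV and 208 to 272 in MII, was separate in the same way, whereas the number of markers that averaged at least 10 counts was 8 in GV and 3 in MII. The part of follicle cell RNA in the results was not tested.

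Blood and immune markers summed to 0.449 to 2.1 CPM in the GV oocytes of batch A, 0.78 to 19.7 in MII, where oocyte 1 was the highest, 1.57 to 7.58 in the GV oocytes of batch B and 0.912 to 7.63 in MI. Among these, Cd68 averaged at least 10 counts in MII, and the globin genes Hbb-bs and Hbb-bt did so in both groups of batch B. Lyz2 had no count in 3 of the 4 groups. For 15 sperm-side fertilization genes, which a testis would express, the sums were 9 to 24.1, 16.3 to 22.8, 13 to 28.2 and 4.38 to 52.4 CPM in the same order of groups. Spam1, Zan and Zp3r averaged at least 10 counts in every group and Tmem81 in MII. Acr, which encodes the protease acrosin, and Tmem95 had no count in any group, and Izumo1, the gene of JUNO's partner on sperm, had no count in either group of GV oocytes.

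From GV to MII the counted levels of the RNAs of the zona pellucida proteins were much lower. Since copying was primed on the RNA's tail, a loss of RNA and a shorter tail cannot be told apart here. Zp1, whose protein cross-links the filaments of the coat, had 656 to 1228 CPM in the 6 GV oocytes, with a median of 797, and 246 to 452 in the 6 MII oocytes, with a median of 322. The highest MII oocyte lay below the lowest GV oocyte. Zp2, the sperm-binding component, had 1088 to 2964 CPM in GV, with a median of 1404, and 273 to 717 in MII, with a median of 326. Again the groups did not overlap, although MII oocyte 2 stood well above the other MII oocytes. Zp3, which pairs with ZP2 along the filaments, had 1646 to 3523 CPM in GV, with a median of 2196, and 341 to 733 in MII, with a median of 495. All 6 MII oocytes lay below all 6 GV oocytes for each of these genes. GV oocyte 5 was the highest of its group for Zp1, Zp2, Zp3 and Cd9, and MII oocyte 2 was the highest of its own group for the same 4 genes. MII oocyte 1, the library with many more genes detected, was the lowest in Zp1, Zp2 and Zp3.

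In edgeR's quasi-likelihood test across all genes, a gene was called when its p, adjusted by Benjamini-Hochberg over all genes, was under 0.05 and it changed by more than 2-fold. Of the 7 genes Zp1, Zp2 and Zp3 were called, all lower in MII, beside 6.32% of all 12929 genes tested. With ERCC size factors Cd9 and Izumo1r were called as well, where 29.3% of all genes were called lower. Zp1 fell 2.61-fold (log2 fold change -1.39, SE 0.178, adjusted p = 7.69e-05). Zp2 fell 4.4-fold (log2 fold change -2.14, SE 0.286, adjusted p = 0.000111), and Zp3 fell 4.64-fold (log2 fold change -2.21, SE 0.223, adjusted p = 1.05e-05). The 95% intervals of Zp2, from -2.74 to -1.53, and of Zp3, from -2.68 to -1.74, overlapped, and that of Zp1 ran from -1.76 to -1.01. With HTSeq counts, where 5.04% of 13409 genes were called lower, the same 3 were called, at log2 fold changes of -1.27, -2.06 and -2.06. Without MII oocyte 1 they were -1.31, -2.05 and -2.12 with expected counts, all called, and the same 3 were called with HTSeq counts.

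**Figure D1:**
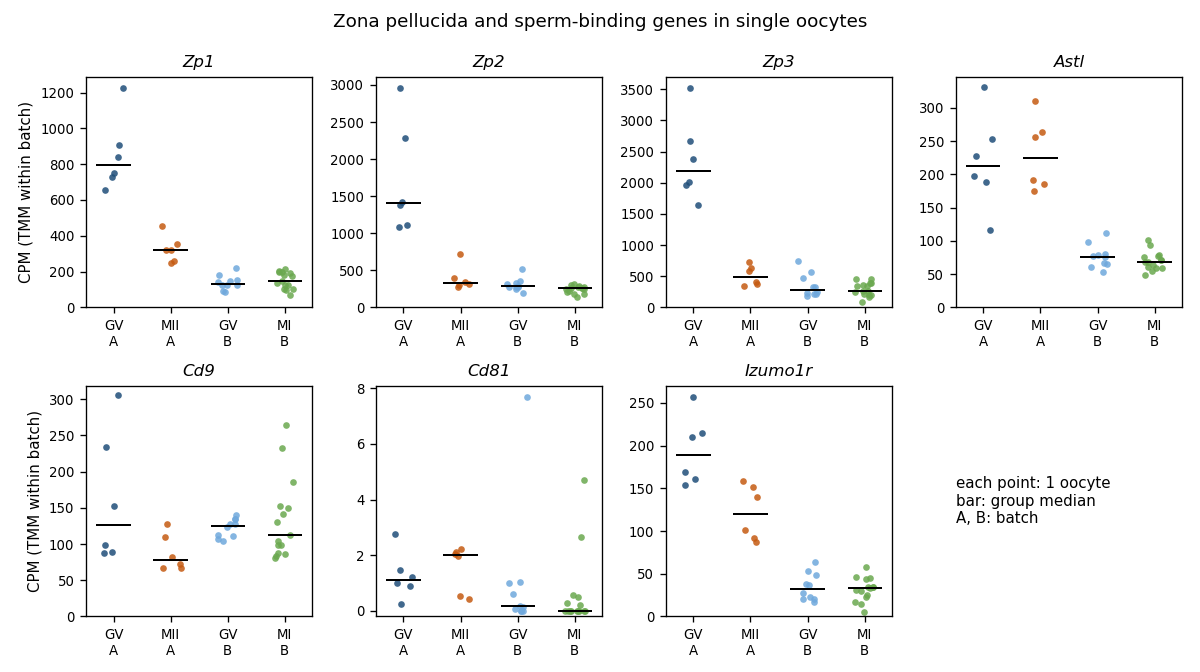
Level of each gene in CPM (TMM scaling within each batch) in the 37 oocytes; each point is an oocyte, the bar is the median, and A and B are the batches. In batch A the MII oocytes reach at most 452 CPM of Zp1, 717 of Zp2 and 733 of Zp3, below every GV oocyte, while the stages overlap for Astl, Cd9, Cd81 and Izumo1r.

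Astl, the gene of the protease that cleaves ZP2, had overlapping levels at both stages on the CPM scale. The GV oocytes had 117 to 332 CPM with a median of 212, and the MII oocytes 175 to 311 with a median of 224. The range of the MII oocytes lay within that of the GV oocytes. The log2 fold change was 0.08 (SE 0.212, adjusted p = 0.836) with a 95% interval from -0.37 to 0.52, so a change of 2-fold in either direction lay outside the interval on this scale. Whether Astl differed from Zp2 in its change was not tested.

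The tetraspanin Cd9 overlapped between the stages. Its level was 87.9 to 306 CPM in GV, with a median of 126, and 67 to 127 in MII, with a median of 77.7. Of the MII oocytes, 4 lay below every GV oocyte, and GV oocyte 5 stood at more than any other of the 12. The log2 fold change was -0.88 (SE 0.297, adjusted p = 0.0451), which is 1.84-fold and under the fold threshold. Without GV oocyte 5 it was -0.59 with an adjusted p of 0.137, and the adjusted p passed 0.05 in 4 of the 12 fits that left out an oocyte. Leaving out GV oocyte 3, GV oocyte 6 or MII oocyte 2 instead brought Cd9 past both thresholds, at -1.0 in each case.

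Cd81 was near the limit of detection. The GV oocytes of batch A held 3 to 36 expected counts of it and the MII oocytes 4 to 26, or 0.246 to 2.77 and 0.423 to 2.24 CPM, with medians of 1.1 and 2. The groups overlapped throughout. Its log2 fold change of 0.30 had an interval from -0.81 to 1.41 (adjusted p = 0.728), which includes a 2-fold rise. In batch B 3 of 10 GV oocytes and 9 of 15 MI oocytes had no count of Cd81, which allows up to 3 counts, and the highest were GV oocyte 7 with 61 counts and MI oocyte 5 with 80. Such a limit covers counting error alone, since the reads carried no molecular identifiers, whereas the intervals of fold changes hold the spread between oocytes. The cumulus marker sum was 96.5 CPM in each of these 2 oocytes, against group medians of 106 and 105, most of it from Serpine2, and the source of the Cd81 counts was not tested.

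Izumo1r, the sperm receptor, had 154 to 257 CPM in the GV oocytes of batch A, with a median of 190, and 87 to 159 in MII, with a median of 120. Of the MII oocytes, 5 lay below every GV oocyte and oocyte 6 lay just inside the GV range. The log2 fold change was -0.67 (SE 0.183, adjusted p = 0.0167), or 1.59-fold, past the p threshold and under the fold threshold. With HTSeq counts it was -0.44 with an adjusted p of 0.0991. Counting calls by adjusted p alone, 5 of the 7 genes were lower in MII, Cd9 and Izumo1r joining the zona genes, where 11.5% of all genes tested were called lower.

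Scaling to the RNA spike-ins added to batch A moved all 7 changes downward. Astl went from a log2 fold change of 0.08 to -0.69 and Cd81 from 0.30 to -0.35, neither of them called, so the sign of these 2 depends on the scaling. TMM scaling sets the middle of all genes near 0, with a median log2 fold change of 0.01, whereas ERCC size factors moved that median to -0.72. Spike-ins made up 0.591% to 1.47% of the counts in GV oocytes, with a median of 0.849%, and 0.979% to 1.4% in MII, with a median of 1.17%. For every 1000 spike-in counts the GV oocytes held on average 118116 counts of all genes and the MII oocytes 84237, a ratio of 1.4, and 5 of the 6 GV oocytes lay above every MII oocyte. Spike-in counts of batch B were 0 to 32 in an oocyte, so no such scaling was made there.

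Counted against the spike-ins, the counts of the zona RNAs fell furthest of the 7 genes, and tail length again was not measured. Zp3 went from a mean of 301 (SD 122) to 39.1 (SD 12.8) counts per 1000 spike-in counts, a ratio of 7.7, and Zp2 from 225 (SD 130) to 30.3 (SD 15.3), a ratio of 7.42. Zp1 went from 110 to 25.2, a ratio of 4.36. The groups did not overlap for these genes, nor for Izumo1r, which went from 24.5 to 9.25, a ratio of 2.64. Cd9 went from 20.8 to 6.75, a ratio of 3.09, and 5 of the 6 MII oocytes lay below every GV oocyte. Astl went from 29 to 18, a ratio of 1.61 beside the 1.4 of all genes. Cd81 went from a mean of 0.163 to 0.125, while its median went from 0.137 to 0.163. With ERCC size factors 5 of the 7 genes were called lower, where 29.3% of all genes were. Cd9 was then at a log2 fold change of -1.63 and Izumo1r at -1.40, while Astl, at -0.69 with an adjusted p of 0.06, lay close to the median of all genes. Without MII oocyte 1 the same 5 genes were called with ERCC size factors, beside 3767 of 13113 genes lower. Astl was then at -0.79 (adjusted p = 0.0449), under the fold threshold and still near the median of all genes, -0.74.

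Between GV and MI, within batch B, the levels of the same RNAs overlapped. Zp1 had 84.3 to 220 CPM in the 10 GV oocytes, with a median of 133, and 69.8 to 212 in the 15 MI oocytes, with a median of 145. Zp2 had 188 to 513 in GV (median 286) and 144 to 311 in MI (median 257), and Zp3 had 185 to 748 (median 285) and 88.9 to 459 (median 266). For each zona gene the groups overlapped, and most oocytes of either stage lay within the range of the other. GV oocyte 1 was the lowest of its group for Zp1, Zp2, Zp3 and Astl, and MI oocyte 6 for Zp1, Zp2, Zp3 and Izumo1r. Astl had 53 to 112 CPM in GV (median 76.3) and 48.1 to 101 in MI (median 68.8), and Izumo1r had 17.1 to 63.3 (median 32.1) and 5.17 to 57.5 (median 33.3). Cd9 had 104 to 140 in GV (median 126), with the smallest coefficient of variation of the 7 genes there (10.5%), and 81 to 265 in MI (median 112). In MI, 7 oocytes lay below every GV oocyte, and 6 lay above every GV oocyte, with oocyte 11 the highest. Cd81 was too low for the filter on counts and was not tested.

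None of the 6 genes tested was called between GV and MI by edgeR, where 0.121% of 12419 genes were called in either direction. At an unadjusted p under 0.05 there was 1, Zp2, with a log2 fold change of -0.32 (95% interval -0.59 to -0.04, p = 0.0239, adjusted p = 0.356). DESeq2 called 0 of the 6 and HTSeq counts gave 0, with 0% of 12441 genes called. The intervals were narrow enough to bound the changes of most members. Zp1 was at 0.11 (-0.23 to 0.45, adjusted p = 0.879) and Zp3 at -0.27 (-0.73 to 0.19, adjusted p = 0.72). Astl, at -0.13 (-0.39 to 0.14), Cd9, at 0.13 (-0.21 to 0.48), and Izumo1r, at -0.13 (-0.66 to 0.39), had intervals inside 2-fold as well. The counts stayed at 0 without MI oocytes 4, 8 and 9 and without MI oocyte 15.

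The changes to MII and to MI were compared directly, as a contrast in a model of the 4 groups, which asks whether the zona RNAs differ in their change. The change to MII was lower by a log2 difference of -1.42 for Zp1 (SE 0.277, adjusted p = 0.00127), -1.74 for Zp2 (SE 0.283, adjusted p = 0.000131) and -1.86 for Zp3 (SE 0.376, adjusted p = 0.00193). These were the 3 of 7 genes called, beside 2.02% of 15083 genes called in that direction. Without MII oocyte 1 and MI oocytes 4, 8, 9 and 15 the differences were -1.33, -1.71 and -1.81, with the same 3 called. Cd9, at -0.92, missed the threshold (adjusted p = 0.0927), and Izumo1r, at -0.46 (adjusted p = 0.614), Astl, at 0.27 (adjusted p = 0.627), and Cd81, at 1.08 (adjusted p = 0.809), had no call. Since each arm lies in its own batch, a difference between stages and a difference between batches cannot be told apart in this contrast.

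The GV oocytes themselves differed between the batches. In batch B the GV medians of Zp1, Zp2 and Zp3, at 133, 286 and 285 CPM, were numerically below the MII medians of batch A. CPM were scaled within each batch, so these medians are not on one scale, and their order was not tested. In the model of the 4 groups the GV oocytes of batch B were lower than those of batch A by a log2 fold change of -2.07 for Zp1 (adjusted p = 3.68e-11), -1.93 for Zp2 (adjusted p = 3.21e-10) and -2.20 for Zp3 (adjusted p = 9.94e-09). Izumo1r was lower too, at -1.95 (adjusted p = 4.95e-07). These 4 genes were called, beside 7.98% of 15083 genes called lower in batch B, and the same 4 without MII oocyte 1 and MI oocytes 4, 8, 9 and 15. Astl was at -0.98 (adjusted p = 1.17e-05), which is 1.98-fold and just under the fold threshold. Cd9, in contrast, was at 0.15 (95% interval -0.33 to 0.63, adjusted p = 0.692). Its GV median was 126 CPM in either batch, again on the separate scales. The contrast of GV between batches and the contrast of stages in batch A share the 6 GV oocytes of batch A. Whether the lower GV level of batch B bears on its change to MI was not tested.

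**Figure D2:**
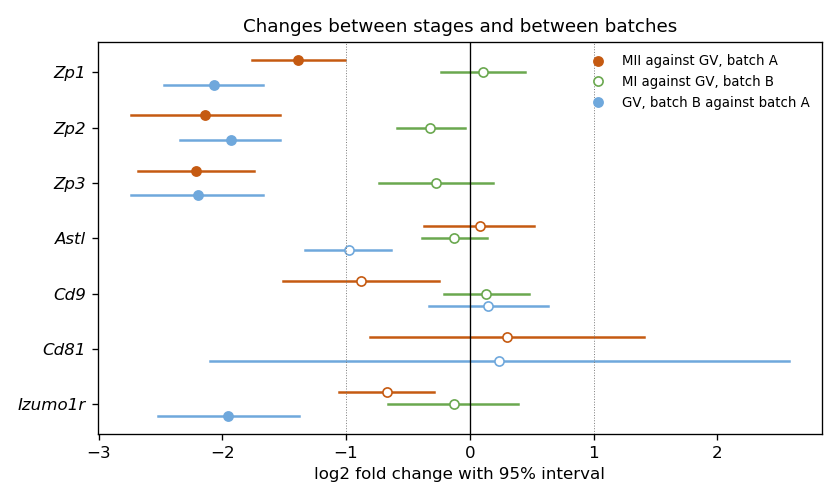
Log2 fold change of each gene with its 95% interval, for MII against GV in batch A, MI against GV in batch B, and the GV oocytes of batch B against those of batch A; filled points were called and dotted lines mark a 2-fold change. Zp1, Zp2 and Zp3 lie between -1.39 and -2.21 at MII and between 0.11 and -0.32 at MI on TMM scaling; with ERCC size factors Cd9 and Izumo1r were called at MII as well.

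Levels can be set side by side between genes once counts are divided by transcript length and rescaled to the same total in each oocyte. On that scale Zp3 was the most abundant of the 7 genes in each group. In the GV oocytes of batch A it averaged 3591 (SD 1184, n = 6), place 28 among 29087 genes with counts. Zp2 followed with 1563 (SD 788), place 49, and Zp1 with 898 (SD 250), place 96. The zona genes thus stood above the genes of the membrane proteins and of ovastacin. Izumo1r averaged 341 (SD 58.9), Cd9 272 (SD 166), Astl 197 (SD 71.6) and Cd81 1.83 (SD 1.29), the last at place 11984. Neighbours in this order overlapped between oocytes except at the step from Zp1 to Izumo1r and at the step from Astl to Cd81.

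In MII oocytes the steps between the genes were smaller. Zp3 averaged 658 (SD 236), place 116 of 34984, Zp2 302 (SD 151) and Zp1 288 (SD 82.3). Izumo1r at 183 (SD 50.6), Astl at 173 (SD 38.7) and Cd9 at 127 (SD 42.7) overlapped with one another, and Cd81 at 1.79 did not overlap with any. In batch B Cd9 took a higher place with expected counts. Among its GV oocytes the order was Zp3 at 492 (SD 212), Zp2 at 266 (SD 83.9), Cd9 at 199 (SD 33.1), Zp1 at 150 (SD 43.8), Astl at 64.6 (SD 13.4), Izumo1r at 61.3 (SD 24.1) and Cd81 at 1.07. In MI oocytes Zp3 at 424 (SD 178) was followed by Cd9 at 242 (SD 143), Zp2 at 214 (SD 66), Zp1 at 166 (SD 52.6), Astl at 59 (SD 16.1), Izumo1r at 56.3 (SD 25) and Cd81 at 0.798. In the GV group the neighbours that did not overlap were Zp1 and Astl, and Izumo1r and Cd81; in MI they were Izumo1r and Cd81. With HTSeq counts per summed exon length Zp3 was again first in each group and Cd81 last, while other places changed. Astl moved ahead of Izumo1r and Cd9 in the GV oocytes of batch A and ahead of Izumo1r in MII, where Zp1 also passed Zp2. Cd9 dropped behind all zona genes in batch B, to 105 in GV and 119 in MI.

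Of the 27 transcripts, 19 averaged at least 10 expected counts in at least 1 group, and most of each zona gene's counts fell on a single transcript. Zp1-201 held 96.6% to 99.6% of the Zp1 counts in the GV oocytes of batch A, and Zp3-201 held 99.8% of Zp3 in each of them. Zp2-201 held 97% to 98.9% of Zp2. Below the level of the gene, 7 transcripts fell from GV to MII, beside 4.23% of 22461 transcripts called lower. For Zp1 these were Zp1-201 (log2 fold change -1.40, adjusted p = 0.000639) and the short Zp1-202 (-1.97, adjusted p = 0.0183). For Zp3 they were Zp3-201 (-2.24, adjusted p = 0.000118) and Zp3-202 (-1.61, adjusted p = 0.0295), the latter of the annotation's nonsense-mediated decay class. For Zp2 they were Zp2-201 (-2.30, adjusted p = 0.000808) and Zp2-203 (-2.13, adjusted p = 0.00664), of the same class. Izumo1r-205, an incomplete model with no 3′ UTR that averaged under 20 counts, was the seventh (-1.67, adjusted p = 0.0442). Without MII oocyte 1 the count was 5, as Izumo1r-205 and Zp3-202 were no longer called, and over the 12 fits that left out an oocyte Izumo1r-205 was not called in 11 and Zp3-202 in 8.

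The other transcripts had no call. Izumo1r-201, the main one, was at -0.75 (adjusted p = 0.0292), under the fold threshold, Izumo1r-204 at -0.64 (adjusted p = 0.0824) and Izumo1r-202 at 0.41 (adjusted p = 0.558). Cd9-201 was at -0.97 (adjusted p = 0.087), Cd9-203 at 0.25 (adjusted p = 0.591), and Cd9-202 was too low to be tested. Zp2-204, a retained-intron model, was at -0.72 and Cd81-201 at 0.30. The Astl transcripts split differently in different oocytes. Astl-202 held 21.6% to 74.6% of the Astl counts in the GV oocytes of batch A and Astl-204 23.5% to 77.5%, and in MI oocytes Astl-202 ran from 0% to 100%. Both models have 9 exons, at total lengths of 2251 and 2236 bases, and differ at their outer ends alone, so few bases tell their reads apart. Their log2 fold changes were -0.37 for Astl-202, 0.43 for Astl-204 and 0.34 for the rare Astl-201.

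Of the zona transcripts tested, Zp2-204 and Zp2-205 had no call, and Zp2-205 had the higher median in MII. It has 18 exons and shares 16 of them with Zp2-201, but it leaves out the last exon of that transcript, at 120132340 to 120132546 of chromosome 7, for one 5568 bases further on, at 120126772 to 120126991. Its 3′ UTR is 173 bases long, against 49 in Zp2-201. In the GV oocytes of batch A it had 192.84 to 488.87 expected counts, with a median of 269.175, and in the MII oocytes 268.28 to 552.17, with a median of 424.24. The groups overlapped, with MII oocytes 2, 3 and 5 high and GV oocyte 5 the only GV oocyte among them. Over the same oocytes Zp2-201 went from a median of 13943.5 to 3009.88. The log2 fold change of Zp2-205 was 0.58 (SE 0.243, p = 0.0321, adjusted p = 0.159), short of a call. Without GV oocyte 5 it was 0.79 (adjusted p = 0.0468), under the fold threshold, and with ERCC size factors it was -0.19.

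The share of Zp2 counts on Zp2-205 differed between the stages of batch A. It was 0.692% to 2.21% in the 6 GV oocytes, with a median of 1.82%, and 7.51% to 15.1% in the 6 MII oocytes, with a median of 10.5%. No MII oocyte came near the GV range. The means were 1.7% ± 0.575 and 11% ± 3.02 (SD, n = 6 each), a difference of 9.33 points, and an exact two-sided permutation test over the 924 assignments gave p = 0.00216, the smallest it can give. That test was chosen after the shares had been seen to separate, which fixes its p, and so it adds nothing to the separation itself. In edgeR's test of transcript usage across all genes Zp2 was the single one of the 6 members tested that was called (adjusted p = 1.43e-07), beside 2.39% of 5477 genes, and adjusted p was 4.94e-07 without MII oocyte 1. On simulated data this usage test gave more false calls than its threshold. The higher share went with lower counts of Zp2-201 and with counts of Zp2-205 that overlapped between the stages. In batch B the share was 0% to 4.46% in GV (median 1.79%) and 0% to 4.38% in MI (median 1.75%), and the groups lay over each other.

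**Figure D3:**
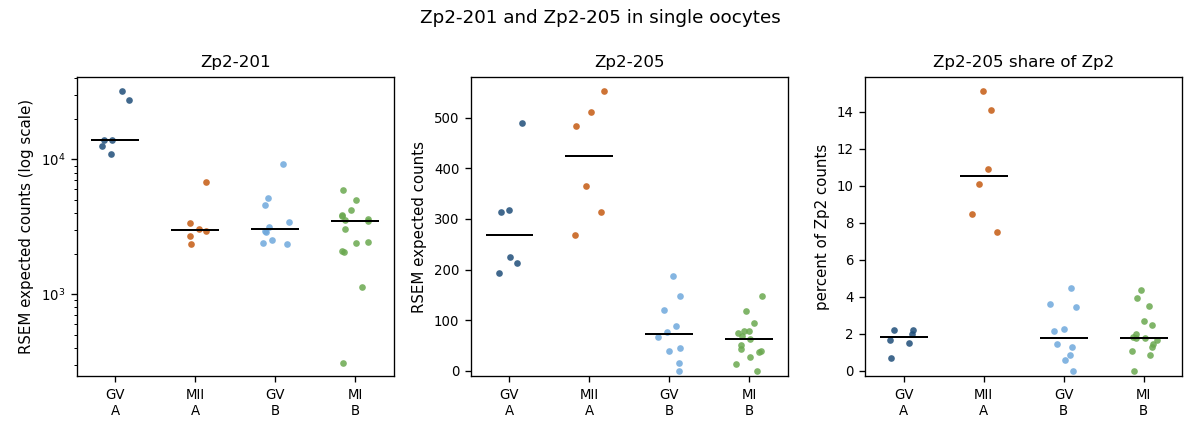
Expected counts of Zp2-201 (log scale) and Zp2-205, and the share of Zp2 counts on Zp2-205 in percent, in each of the 37 oocytes; bars are medians and A and B are the batches. The share lies between 7.51% and 15.1% in the MII oocytes and at or below 4.46% in all other oocytes.

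No transcript of the 7 genes was called between GV and MI by edgeR, where 0% of 22717 transcripts were called; 2 of the 16 tested had an unadjusted p under 0.05, Zp2-201 and Cd9-203. DESeq2 called 1 of the 16, higher in MI, where it called 0.427% of the 22717 transcripts higher and 103 in either direction. That was Cd9-203, a retained-intron model of 2 exons near the 3′ end of Cd9. Its share of the Cd9 counts ran from 3.22% to 13.4% in the GV oocytes of batch B, with a median of 8.74%, and from 3.88% to 40.2% in MI, with a median of 21.6%. In batch A it was 1.99% to 5.75% in GV and 6.25% to 9.02% in MII, without overlap, and the usage test there gave Cd9 an adjusted p of 0.967. The MI oocytes spread across the whole of their range. MI oocytes 5, 9, 12 and 15 lay within the GV range of batch B, with oocytes 9 and 15 at its low end. The log2 fold change was 1.49 (SE 0.427), with an adjusted p of 0.338 by edgeR and 0.0414 by DESeq2. Without MI oocytes 4, 8, 9 and 15 it was 1.71, with an adjusted p of 0.066. From GV to MI the usage test gave Cd9 an adjusted p of 0.388, and 0.108% of 5535 genes were called.

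The 3′ ends of the main transcripts are shown because the zona RNAs have very short 3′ UTRs and because the Zp2 transcripts differ there. Zp3-201 has a 3′ UTR of 13 bases, Zp1-201 one of 34 and Zp2-201 one of 49, where the median over 44223 coding transcripts is 623 and the tenth percentile 98. The other members have longer ones, 333 bases in Izumo1r-201, 395 in Cd9-201, 560 in Cd81-201 and 876 in Astl-202. The last 30 bases were searched on the transcript's strand for AATAAA, the main signal for cleavage and polyadenylation, and capitals mark it below. It lies there in 46.4% of the coding transcripts, and its variant ATTAAA in 12.6%. In Zp3-201 the stop codon, TAA, falls inside the signal itself. Zp2-201 has neither form in this window and Zp2-205 has AATAAA. From 5′ to 3′ the ends in GRCm38 are:
Zp1-201: actcAATAAAccattgtttgaaaactcctg
Zp2-201: gactgcagttaaactcttgtcttacatgtt
Zp2-205: tctttaaactctAATAAAattatcctctgg
Zp3-201: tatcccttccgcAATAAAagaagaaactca
Astl-202: aggtagaAATAAAgttgggtgtttgcttca
Cd9-201: tttgatacatAATAAAagattataacagtg
Izumo1r-201: gtaccttcAATAAAaggctaggaaactcta

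Each of these but Zp2-201 carries the signal, and Cd81-201 has none in its last 30 bases. The letters TTTTAT and TTTTAAT, 2 forms of the element that marks RNAs for tail lengthening during maturation, were searched in the last 100 bases of the 18 coding models. No member had either, where 12.3% of coding transcripts with a 3′ UTR have TTTTAT and 4.43% have TTTTAAT. The sets are unlike, since Astl-203, Cd81-204, Cd81-205 and Izumo1r-205 have no 3′ UTR. Several other models of a gene, such as Astl-201, Astl-202 and Astl-204, have nearly the same end. No match says only that these letters are not in this window. Transcripts with such short 3′ UTRs were mostly lower, not higher, where they were called. Of 350 tested transcripts with a 3′ UTR of at most 50 bases, a limit set after the lengths of the zona RNAs had been seen, 76 were lower at MII and 1 was higher, with a median log2 fold change of -0.52. Zp1-201, Zp2-201 and Zp3-201 are themselves among the 76. Over all 15532 coding transcripts with a 3′ UTR 662 were lower and 148 higher, with a median of 0.04. From GV to MI 0 of 360 such short transcripts were called by edgeR, with a median of 0.01, and 0 of all 14719 coding transcripts with a 3′ UTR, with a median of -0.02. Genes of the short group are not independent replicates, and other properties they share were not tested.

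Among oocytes of the same stage the members varied by different amounts. The SD of log2(CPM + 1) was compared with that of the 500 genes nearest in level. Cd9 had an SD of 0.765 in the GV oocytes of batch A, above 99.2% of such genes, and 0.153 in the GV oocytes of batch B, above 1.8% of them. The wide spread of batch A ran up to GV oocyte 5, at 306 CPM. Zp2 had an SD of 0.586 in the GV oocytes of batch A and 0.507 in MII, above 95.2% and 96.8% of genes at its level. Zp3 was the more variable one in batch B, at 0.677 in GV and 0.633 in MI, above 99.2% and 97.4%. Izumo1r reached 0.8 in MI, above 96.4%. Astl spread no more than its neighbours in level in batch B, at 0.315 in GV and 0.279 in MI. In batch A Astl was at 0.501 in GV and 0.335 in MII, above 92.6% and 76% of genes at its level. Cd81, on few counts, was at 0.96 in GV and 0.764 in MI of batch B, above 98.4% and 95.2%.

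Several pairs of members went up and down together from oocyte to oocyte of a group. With group means removed, Pearson's r of log2(CPM + 1) over the 37 oocytes was 0.817 for Zp3 and Izumo1r and 0.786 for Zp1 and Zp3. Within batches the second was 0.931 in A and 0.758 in B. Zp1 and Izumo1r had 0.622. Zp2 and Zp3 had 0.780 in batch A and 0.635 in batch B, and Zp1 and Zp2 had 0.871 and 0.378. Zp2 and Cd9 went together in batch A, at 0.920, and less so in batch B, at 0.297. Astl and Izumo1r had -0.194, which was -0.804 in batch A and -0.047 in batch B, and Astl and Zp2 had 0.410 in batch B and 0.055 in batch A. All values of an oocyte share its library, depth and scaling, so these are descriptions across 37 oocytes and carry no test.

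Among 6599 genes with a mean of at least 10 CPM, those with the most similar pattern were found from r with the batch means removed, which leaves differences between stages in. Among the closest to Zp3 were Uchl1 (0.923) and Elobl (0.907). Zp1 was closest to Zp3 (0.880), Upp1 (0.868) and Mrps22 (0.861), and Zp2 to E330017A01Rik (0.880), Rps13 (0.880) and Rps29 (0.875). Zp1 and Zp3 thus shared a pattern, and Rps13 and Rps29, near Zp2, encode ribosomal proteins. Izumo1r was closest to Ndufb11 (0.854), Lamtor5 (0.852) and Gyg (0.850), and Cd9 to Mrap (0.721), Nlrp14 (0.717) and Vdac2 (0.686). The closest genes of Cd81, Smg8 (0.648), Slc2a1 (0.627) and Nanos1 (0.623), rest on its few counts, and Astl had no close neighbour, with Mfsd9 (0.531), Hnrnpm (0.506) and Ivd (0.497) nearest.

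Of 13 listed genes that switch the zona genes on or process their products, 12 were tested from GV to MII. Of these 2 fell and 0 rose, beside 6.32% lower and 2.15% higher of all genes. The list's median log2 fold change was -0.10 against 0.01 for all genes. Figla, the transcription factor that turns on Zp1, Zp2 and Zp3, went from 31.3 ± 16.3 to 14.1 ± 5.14 CPM (SD, n = 6 each), with a log2 fold change of -1.16 (adjusted p = 0.0199). C1galt1c1, the chaperone of the enzyme that extends O-linked sugars, went from 22.4 ± 10.1 to 10.8 ± 4.85 CPM (-1.05, adjusted p = 0.0257). From GV to MI 0 of 11 were called, with a median of -0.25 against 0.02 for all genes. The most abundant of them, Oosp1, was at -0.53 (adjusted p = 0.223).

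JUNO is held by a glycolipid anchor, and 3 of 26 tested genes of GPI anchor synthesis and attachment fell from GV to MII, with 0 higher and a list median of -0.11, where 6.32% of all genes were lower and their median was 0.01. Dpm2 and Dpm3 belong to the enzyme that makes dolichol phosphate mannose, and Pigs to the complex that attaches the anchor. Dpm2 went from 19.2 ± 5.06 to 7.15 ± 2.51 CPM (log2 fold change -1.42, adjusted p = 0.000975) and Dpm3 from 2.59 ± 0.923 to 0.578 ± 0.325 (-2.14, adjusted p = 0.00336). Pigs went from 29 ± 3.79 to 12.8 ± 4.29 (-1.17, adjusted p = 0.001). From GV to MI 0 of 24 were called, with a median of -0.05 and the abundant Piga at 0.12 (adjusted p = 0.887).

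The lists of other surface proteins, of cortical granules, of relatives and of sperm-side genes held no called gene from GV to MII, where 6.32% of all genes were lower and 2.15% higher, so few calls would be met in lists of this size. Of 12 tested tetraspanins, their partners and integrins, 0 were called and the median was 0.37. Rdx, which encodes the membrane linker radixin and was by far the most abundant, went from 1840 ± 273 to 2284 ± 199 CPM (0.31, adjusted p = 0.0852). Of 16 tested genes of cortical granule traffic and exocytosis, whose cargo is ovastacin, 0 were called and the median was 0.07. Padi6, whose protein belongs to the cytoplasmic lattices of the oocyte, went from 2590 ± 614 to 1523 ± 166 CPM (-0.77, adjusted p = 0.00234), under the fold threshold. Of the relatives of Izumo1r and Astl in the folate receptor and astacin families 2 were tested, with a median of 0.03, and Tll1 was at 0.63 (adjusted p = 0.0256), under the fold threshold. Of the sperm-side genes 3 were tested, again with a median of 0.03, and Spam1 was at 0.03.

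From GV to MI these lists had no call either, with medians of 0.11, 0.06, -0.08 and 0.09. Rdx was at 0.15, Padi6 at -0.22, Tll1 at 0.31 and Zan at 1.00 (adjusted p = 0.367). By DESeq2 116 of all 12419 genes were called in that comparison, against 15 by edgeR, and 1371 had an unadjusted p under 0.05. Among the oocyte markers, Ooep, part of the subcortical maternal complex, fell from 978 ± 246 to 474 ± 123 CPM at MII (-1.04, adjusted p = 0.00159), the 1 of 9 called, beside 6.32% lower of all genes, with a list median of -0.11. At MI 0 of 9 were called, with a median of -0.24, and Gdf9 was at -0.27. Of the cumulus markers 3 were tested at MII with 0 called and a median of 0.12, and Serpine2 was at 0.56 (adjusted p = 0.00463). At MI 5 were tested, with a median of -0.01, and Gja1, the connexin that joins cumulus cells, fell by 3.42 on the log2 scale (adjusted p = 0.0174), from 0.37 to 10.2 CPM in GV (median 2.09) to 0 to 0.96 in MI (median 0.166). Of the blood markers 0 were tested at MII, where Cd68 was the most abundant, and 2 at MI, with a median of -0.62 and Hbb-bs at -0.46.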

How the data were processed

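The authors trimmed reads with Trim Galore 0.6.4, aligned them to mm10 with STAR 2.7.6a and deposited, for 37 oocytes, HTSeq 0.12.4 counts per gene and RSEM 1.3.1 expected counts per gene and per transcript, both without normalization. Members and lists were chosen with earlier results of these data known. Names, positions, exons and sequences came from GENCODE M21 on GRCm38, which held 54723 of 54752 gene and 138789 of 138835 transcript identifiers; of the 28 GPI genes Pigy was not found.

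Expected counts were rounded; neither tests nor library sizes included the 92 spike-ins. In R 4.3.3, edgeR 4.0.16 (limma 3.58.1) with TMM, filterByExpr and the quasi-likelihood test compared GV and MII within batch A, GV and MI within batch B, and 2 contrasts in a model of the 4 groups. A feature was called when its p, adjusted by Benjamini-Hochberg over all features tested, was under 0.05 and its change exceeded 2-fold. Usage was tested with diffSpliceDGE. Tests were tried on simulated data, where the usage test gave more false calls than its threshold; the Zp2-205 share was also tested by exact permutation, chosen after seeing the data.

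Alternatives were DESeq2 1.42.0, RLE and ERCC size factors, no filter, no fold threshold, a replicate block, batch as a covariate, HTSeq counts, leaving out each oocyte of batch A, and leaving out MI oocytes; fits without several of the libraries set apart, and HTSeq counts with ERCC size factors, were added after seeing the data. Tables were made with pandas 2.3.3, numpy 2.4.6 and scipy 1.17.1 under Python 3.11.15, and figures with matplotlib 3.10.9.

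Genes named are the 7 members; their transcripts with a mean of at least 10 expected counts in a group; from each list and comparison up to 3 called genes higher and 3 lower by adjusted p, or the most abundant where none was called; markers of other cells with a mean of at least 10 counts; and the 3 genes of most similar pattern to each member, of which not all are reported. Depth was 2709280 to 19390128 expected counts per oocyte.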

Additional observations from a re-analysis of the deposited data

Results flagged for a closer look

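In 3 of 21 groups of 6 or 10 oocytes a single value lay far from the rest of its group, where chance picks out about 1 in 20 groups. That rate is nominal and was not measured here, and the groups of different genes hold the same oocytes. For Zp2, MII oocyte 2 had 717 CPM and the next oocyte 391, and in batch B GV oocyte 9 had 513 and the next 357. For Cd81, GV oocyte 7 of batch B had 7.69 CPM and the next 1.02.

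The change from GV to MII differed from the change from GV to MI in the contrast of the model of the 4 groups, by a log2 difference of -1.42 for Zp1, -1.74 for Zp2 and -1.86 for Zp3. The arms lie in different batches, and stage and batch cannot be told apart.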

How the results depend on the processing

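From GV to MII Zp1, Zp2 and Zp3 were called under all 20 alternatives, at log2 fold changes of -2.13 to -1.25, -2.89 to -1.91 and -2.95 to -2.06. The 3 members called became 5 without a fold threshold, 5 with ERCC size factors and 5 with HTSeq counts and ERCC size factors (27.2% of all genes lower), an alternative added after seeing the data. With ERCC size factors and without MII oocyte 1, also added then, either count was again 5, where 3767 of 13113 genes (expected counts) and 3493 of 13655 (HTSeq) were lower, and 10 transcripts were called, where 3549 of 23349 were lower. The 7 transcripts called became 11 with ERCC size factors, where 18.8% of all transcripts were lower, and at MI DESeq2 called 1 in place of 0, among 103 of all transcripts. With the oocyte number as a replicate block 4 transcripts were called, beside 1.61% of all, and Cd9 was at -0.74 (adjusted p = 0.0923). Over 6 pairs of equal number in batch A correlations ran from -0.327 to 0.341. Over 10 such pairs in batch B they ran from -0.146 to 0.107. Of the GV oocytes, 1 of 6 in batch A and 0 of 10 in batch B correlated best with the oocyte of their own number. The labels do not say that equal numbers mark pairs, so the block was kept as an alternative only.

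Cd9 also missed the adjusted p threshold with batch as a covariate, at -0.81 (adjusted p = 0.0502), and with HTSeq counts, at -0.77 (adjusted p = 0.0639). Leaving out each oocyte in turn gave -1.0 to -0.59, with adjusted p from 0.0257 to 0.137. Izumo1r missed it with batch as a covariate, at -0.61 (adjusted p = 0.287), and with HTSeq counts, at -0.44 (adjusted p = 0.0991); leaving out each oocyte gave -0.76 to -0.58. The cause was not tested. Of 188 log2 fold changes under alternatives, 174 kept their side of the adjusted p threshold and 13 missed it. The remaining 1, Astl at MII, turned from 0.08 to -0.79 and passed the p threshold (adjusted p = 0.0449), under the fold threshold, with ERCC size factors and without MII oocyte 1. The sign turned in 7 others, none past the p threshold: for Astl at MII with ERCC size factors (-0.69) and without GV oocyte 4 (-0.05) or MII oocyte 1 (-0.02), for Cd81 at MII with ERCC size factors with and without MII oocyte 1 (-0.35 and -0.41), for Zp1 at MI with the replicate block (-0.06) and for Cd9 at MI with HTSeq counts (-0.06). Outside the 188, the added HTSeq fits at MII turned Astl to -0.68 with ERCC size factors and -0.78 (adjusted p = 0.0476) with these and without MII oocyte 1, and Cd81 to -0.56 and -0.76; Cd81 was at -0.10 without MII oocyte 1 alone. HTSeq counts per exon length moved 12 of 28 levels by more than 1 SD. Cd81, at 0 to 80 counts per oocyte, and the rare transcripts rest on few counts, and the reason for their low counts was not tested.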
